A study of Mus musculus with 4 samples.

Results

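Annexins, S100 proteins, vimentin and galectin-3 were followed in whole kidney RNA of mice with experimental glomerulonephritis (GN), a disease in which the glomeruli, the filters of the kidney, are inflamed. The 9 listed genes were Anxa1, Anxa2, Anxa3, Anxa5, S100a6, S100a10, S100a11, Vim and Lgals3, and every probe set that the platform annotation gives to 1 of them alone was taken. This gave 13 probe sets for 8 genes, out of 12394 genes that could be named on the array. S100a11 had 1 probe set, which the annotation shares with the predicted gene Gm12854 and the pseudogene S100a11-ps, so no value is given for it. Where a gene had several probe sets, the one of highest mean stood for it, and all 8 passed the filter on low values, a mean of at least 6.27 (log2), as did 8207 genes in all.

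All mice were C57BL/6, labelled male and 17 weeks old, in groups of 6. In the groups GN+Captopril and GN+Water, GN was induced by intraperitoneal apoferritin of horse spleen, 10 mg given 5 times weekly, with 100 µg of lipopolysaccharide 3 times a week as adjuvant, for 6 weeks. In Saline+Captopril and Saline+Water, 0.15 M NaCl was injected instead. The captopril groups received 100 mg/kg/day of this inhibitor of angiotensin converting enzyme in their drinking water, and the other groups had water alone. The kidneys were collected at 9 weeks. The question was whether the inhibitor lessens interstitial injury in this model. There was 1 array per group, the labels do not say whether it carried RNA of 1 mouse or of several, and so the differences have neither a replicate check nor a test. A gene was counted as higher or lower when 2 arrays differed at least 1.5-fold.

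Annexins are proteins that bind acidic membrane lipids when calcium rises. Many S100 proteins are small calcium-binding dimers that dock onto annexins, the best known pair being annexin A2 with S100a10 at the inner face of the plasma membrane. Vimentin is the intermediate filament of mesenchymal cells and leukocytes, and tubular epithelium expresses it again after injury. Galectin-3, encoded by Lgals3, is a lectin for galactose-containing sugars and was long known as the macrophage antigen Mac-2.

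Both water arrays carry a limit. On the array labelled GN+Water, Xist, transcribed from the inactive X chromosome, had a log2 value of 8.97, against 5.02 to 5.21 on the other arrays, and the Y-linked Eif2s3y was at 3.43, against 8.02 to 8.29. These values go against the male label, so its group name is given below only as a label, and sex and treatment cannot be told apart in any difference drawn from it. On Saline+Water the median of 18 spike-in probe sets was 10.8, against 7.46 to 7.89 on the others. Its correlation with the others over all probe sets was 0.945 to 0.966 (Pearson), while the other arrays correlated at 0.982 to 0.994. GN+Captopril and Saline+Captopril have neither limit. Kidney markers were well above the background of the arrays: the proximal tubule gene Slc34a1 lay between 13.2 and 13.4 and the loop of Henle gene Umod between 13.2 and 13.5, against a background limit of 4.36 to 4.81.

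The DNA just upstream of the 3 genes that were at least 1.5-fold higher in both GN pairs, Vim, Anxa1 and S100a6, is shown with that of Anxa2. Of the 9 listed genes, 7 had an entry in the promoter table. Each line gives the 250 bases before the annotated start in the GRCm38.p6 build (RefSeq), 5′ to 3′ in the direction of transcription. Capitals mark TATAAA (the TATA box), TGANTCA (the AP-1 site), GGGCGG (the GC box) and CCAAT, searched on both strands.
Vim (chr2:13574061-13574310, plus strand): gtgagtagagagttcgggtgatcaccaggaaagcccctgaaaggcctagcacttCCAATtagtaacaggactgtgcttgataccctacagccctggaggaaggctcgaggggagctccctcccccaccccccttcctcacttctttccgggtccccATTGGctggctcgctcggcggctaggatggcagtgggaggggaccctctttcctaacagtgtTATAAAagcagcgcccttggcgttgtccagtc
Anxa1 (chr19:20390672-20390921, minus strand): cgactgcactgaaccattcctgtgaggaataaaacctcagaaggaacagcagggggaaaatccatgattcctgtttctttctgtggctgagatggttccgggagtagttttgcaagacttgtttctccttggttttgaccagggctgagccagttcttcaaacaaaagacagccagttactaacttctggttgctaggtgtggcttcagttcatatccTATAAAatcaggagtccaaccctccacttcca
S100a6 (chr3:90612644-90612893, plus strand): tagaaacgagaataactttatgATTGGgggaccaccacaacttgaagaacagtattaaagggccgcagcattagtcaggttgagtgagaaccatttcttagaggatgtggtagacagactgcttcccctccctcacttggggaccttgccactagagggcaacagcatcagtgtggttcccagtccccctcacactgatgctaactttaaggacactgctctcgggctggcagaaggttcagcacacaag
Anxa2 (chr9:69453433-69453682, plus strand): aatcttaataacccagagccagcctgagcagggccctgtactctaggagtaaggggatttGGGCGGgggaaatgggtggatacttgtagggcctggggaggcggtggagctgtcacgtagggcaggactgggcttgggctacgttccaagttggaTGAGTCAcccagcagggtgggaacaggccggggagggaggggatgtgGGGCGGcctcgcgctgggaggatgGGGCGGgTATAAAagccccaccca
TATAAA was found upstream of Vim and Anxa1, in both from base -32 to -27 counted from the start, and upstream of Anxa2 from -17 to -12. It was in 3 of the 7 windows of listed genes, and 12.4% of all 32851 such windows contain it. The AP-1 site was found from -95 to -89 upstream of Anxa2 and not in the windows of Vim, Anxa1 or S100a6, and S100a11, whose window is not shown, holds it at 2 places. That is 2 of the 7 windows, and 6.75% of all windows hold it. GGGCGG and CCAAT were each in 3 of the 7 windows, near their shares of 32.7% and 33.8% of all windows. No match here overlapped another, and a match describes the letters only.

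**Figure D1:**
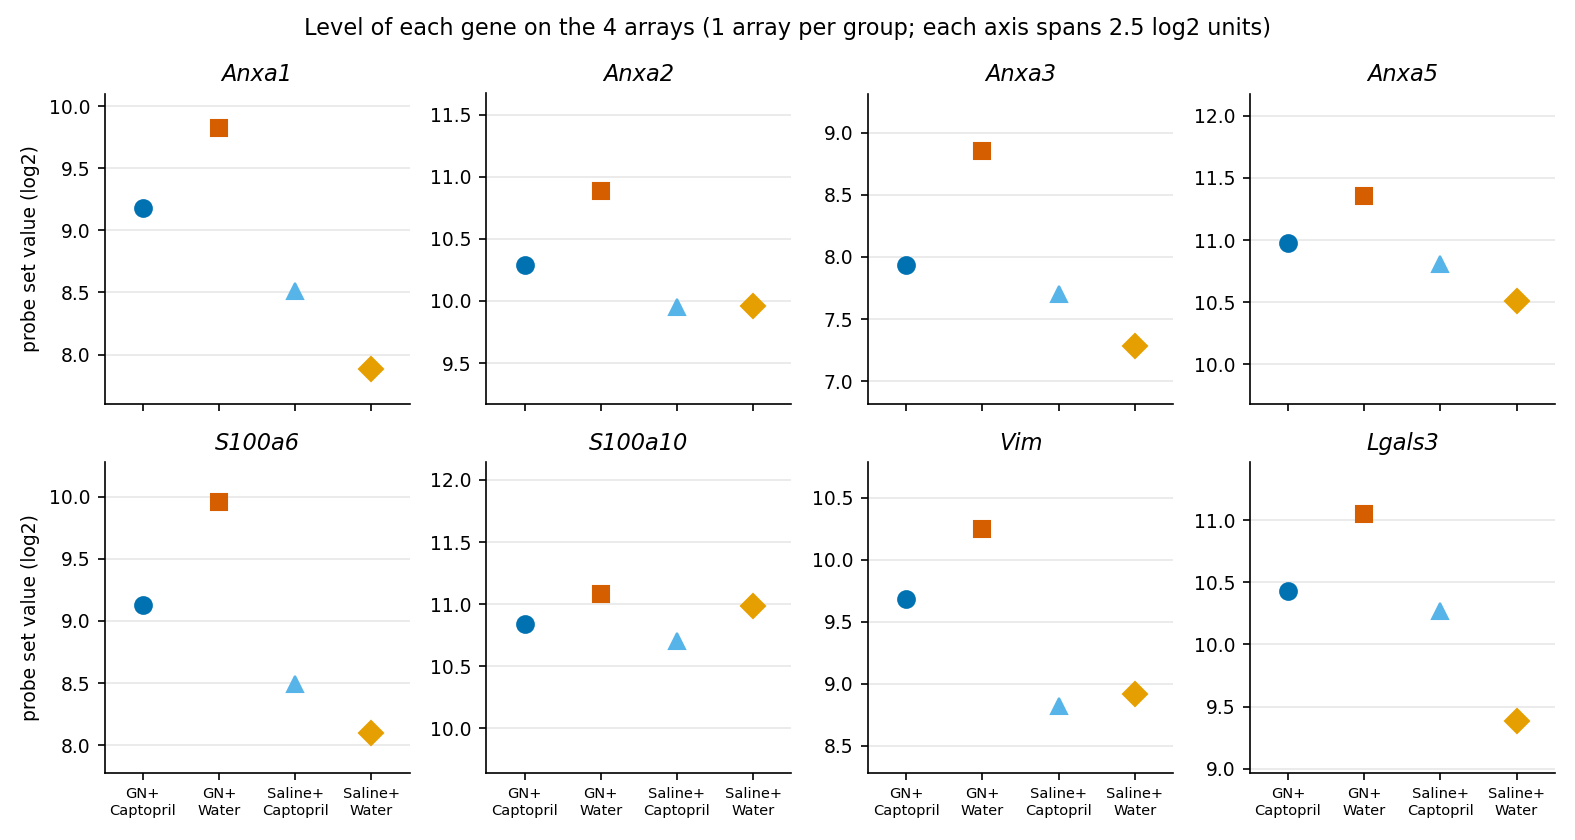
Probe set value (log2) of each of the 8 genes on the 4 arrays, 1 point per array, with every vertical axis spanning the same 2.5 log2 units. The array labelled GN+Water is highest in every panel, GN+Captopril is second in every panel but that of S100a10, and the S100a10 points lie within 0.37 of each other.

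All 8 genes were higher in GN than in saline kidneys among captopril-treated mice, most of them slightly, as were 47.8% of all genes. Vim, Anxa1 and S100a6 were 1.81-fold, 1.59-fold and 1.55-fold higher on GN+Captopril than on Saline+Captopril, and the other genes 1.10-fold to 1.27-fold. Thus 3 of 8 passed 1.5-fold and 0 were lower, where 1.85% of all genes were higher and 0.207% lower. Passing 1.5-fold in both GN pairs, as these 3 did, was seen in 1.5% of all genes. The median difference of the 8 genes was 0.29 (log2), against 0.00 for all genes, and at 2-fold 0 of 8 passed, where 0.719% of all genes were higher. In this comparison Vim ranked 77, Anxa1 116 and S100a6 132 of 8207 genes. In bulk kidney RNA, more cells of a type and more RNA per cell cannot be told apart.

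The GN difference was wider in mice drinking water for 7 of the 8 genes, S100a10 being the exception, but it was also wider over all genes. From the 5th to the 95th percentile, all genes ran from -0.96 to 1.44 on water and from -0.23 to 0.32 on captopril. By rank within the water pair, Vim was 492, Anxa1 177 and S100a6 212 of 8207 genes. Set against Saline+Water, the array labelled GN+Water had 7 of 8 genes past 1.5-fold upward and 0 downward. The median of all 8 was 1.44, against 0.00 for all genes. In the same comparison 19.6% of all genes were higher and 15.3% lower. At 2-fold, 5 of 8 passed, where 10.3% of all genes did. With Saline+Captopril as the baseline of the array labelled GN+Water, 6 of 8 were higher and 0 lower, where 6.31% and 3.03% of all genes were, and the median was 1.04. With GN+Captopril as the GN array, against Saline+Water, 5 of 8 were higher, where 17.2% of all genes were, and the median was 0.71.

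All 8 genes were higher in both GN pairs, as were 24.8% of all genes. Both GN arrays lay above both saline arrays for 7 of 8 genes, as for 16.1% of all genes, with S100a10 the exception. The array labelled GN+Water was the highest array for all 8 genes, which held for 27.8% of all genes. Saline+Water was the lowest for 5 of 8, where it was so for 41.3% of all genes. The dot plot of GN differences shows both pairs side by side.

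**Figure D2:**
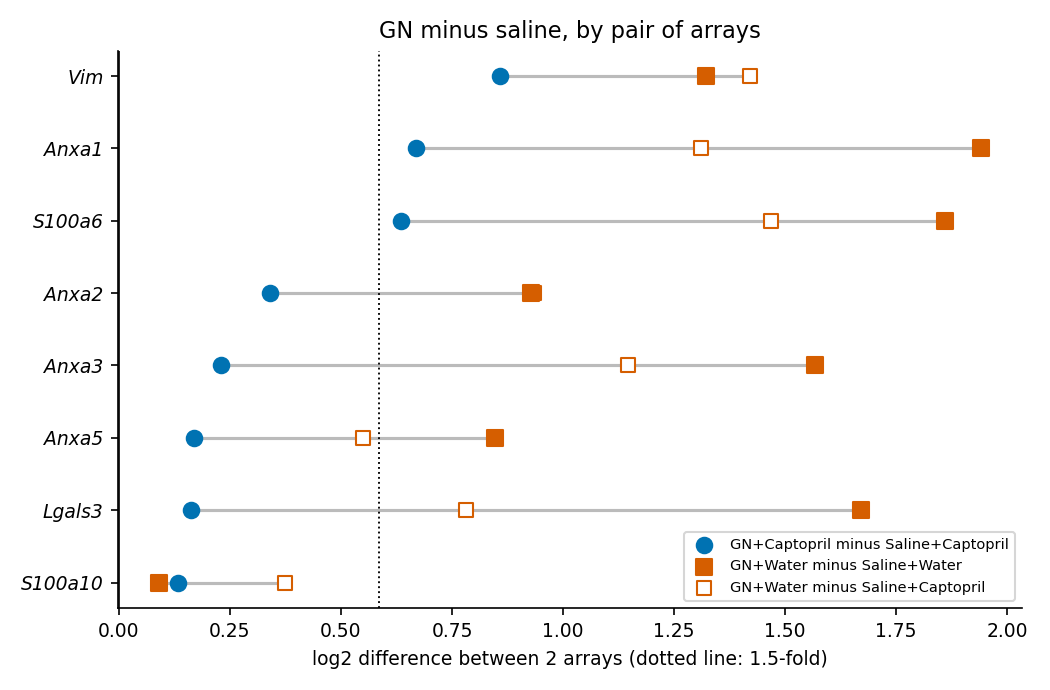
Log2 difference of GN minus saline for each gene. Circles compare the captopril arrays, filled squares the water arrays, and open squares set the array labelled GN+Water against Saline+Captopril, which they share with the circles. The dotted line marks 1.5-fold: Vim, Anxa1 and S100a6 are past it in all 3 comparisons, and S100a10 in 0.

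Anxa1 encodes annexin A1, a glucocorticoid-induced protein that restrains leukocyte entry through formyl peptide receptors. Its probe set value was 9.18 on GN+Captopril, 9.82 on the array labelled GN+Water, 8.51 on Saline+Captopril and 7.88 on Saline+Water. Both GN arrays were above both saline arrays, and the saline arrays were themselves 1.55-fold apart. The GN difference was 0.67 on captopril and 1.94 on water, which is 3.84-fold on water and 2.48-fold when Saline+Captopril is the baseline. Anxa1 therefore kept a difference above 1.5-fold with either saline array and either GN array.

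Anxa2 encodes annexin A2, which with S100a10 forms a cell-surface site that binds plasminogen and its activator. Its value was 10.29 on GN+Captopril, 10.89 on the array labelled GN+Water, 9.95 on Saline+Captopril and 9.96 on Saline+Water. The saline arrays were 1.01-fold apart, the closest of any of the 8 genes. The GN difference was 1.27-fold on captopril and 1.90-fold on water, and the choice of saline array moved the second only to 1.91-fold. Its other 2 probe sets did not show this: 1437691_at lay at or below the background limit on all 4 arrays, and 1437692_x_at, which failed the filter, ranged from 5.55 to 5.86.

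Anxa3 encodes annexin A3, abundant in neutrophils and other myeloid cells. Its value was 7.93 on GN+Captopril, 8.85 on the array labelled GN+Water, 7.70 on Saline+Captopril and 7.28 on Saline+Water. The array labelled GN+Water stood apart, and the other arrays lay within 0.65 of each other. GN exceeded saline by 0.23 on captopril and 1.57 on water, and Anxa3 had the largest difference of the 8 between the GN arrays, being 1.89-fold lower on GN+Captopril.

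Anxa5 encodes annexin A5, used in the laboratory to detect phosphatidylserine on dying cells. Its value was 10.97 on GN+Captopril, 11.35 on the array labelled GN+Water, 10.80 on Saline+Captopril and 10.51 on Saline+Water. The order was that of Anxa1 over a narrower range of 0.85. GN exceeded saline 1.12-fold on captopril and 1.80-fold on water, or 1.46-fold for the array labelled GN+Water over Saline+Captopril, below the threshold.

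S100a6 encodes calcyclin, a calcium-binding protein of proliferating and mesenchymal cells. Its value was 9.13 on GN+Captopril, 9.96 on the array labelled GN+Water, 8.49 on Saline+Captopril and 8.10 on Saline+Water. The 4 values were stepped like those of Anxa1. GN exceeded saline by 0.64 on captopril and 1.86 on water, which is 3.63-fold on water and 2.77-fold over Saline+Captopril.

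S100a10 encodes p11, the light chain of the annexin A2 complex. Its value was 10.84 on GN+Captopril, 11.08 on the array labelled GN+Water, 10.71 on Saline+Captopril and 10.99 on Saline+Water. The GN and saline arrays overlapped, with Saline+Water above GN+Captopril. The GN difference was 1.10-fold on captopril and 1.06-fold on water, against 1.27-fold and 1.90-fold for its partner Anxa2. The second probe set of S100a10, 1456642_x_at, was at the identical value of 10.32 on GN+Captopril and Saline+Captopril, and differed by 0.60 (1.52-fold) between the water arrays, higher in GN.

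Vim encodes vimentin. Its value was 9.68 on GN+Captopril, 10.24 on the array labelled GN+Water, 8.82 on Saline+Captopril and 8.92 on Saline+Water. The saline arrays were 1.07-fold apart and both GN arrays were clear of them. Of the 8 genes, Vim had the largest GN difference on captopril, 0.86, which was also the closest to its water difference, 1.32, apart from that of S100a10. Its 3 probe sets were 1.81-fold, 1.82-fold and 2.01-fold higher in GN on captopril, but differed by 1.32, 2.44 and 2.98 (log2) on water. The last 2 of these had lower values on Saline+Water than on Saline+Captopril, by 0.98 and 1.19, and over Saline+Captopril the array labelled GN+Water was 2.68-fold, 2.76-fold and 3.45-fold higher.

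**Figure D3:**
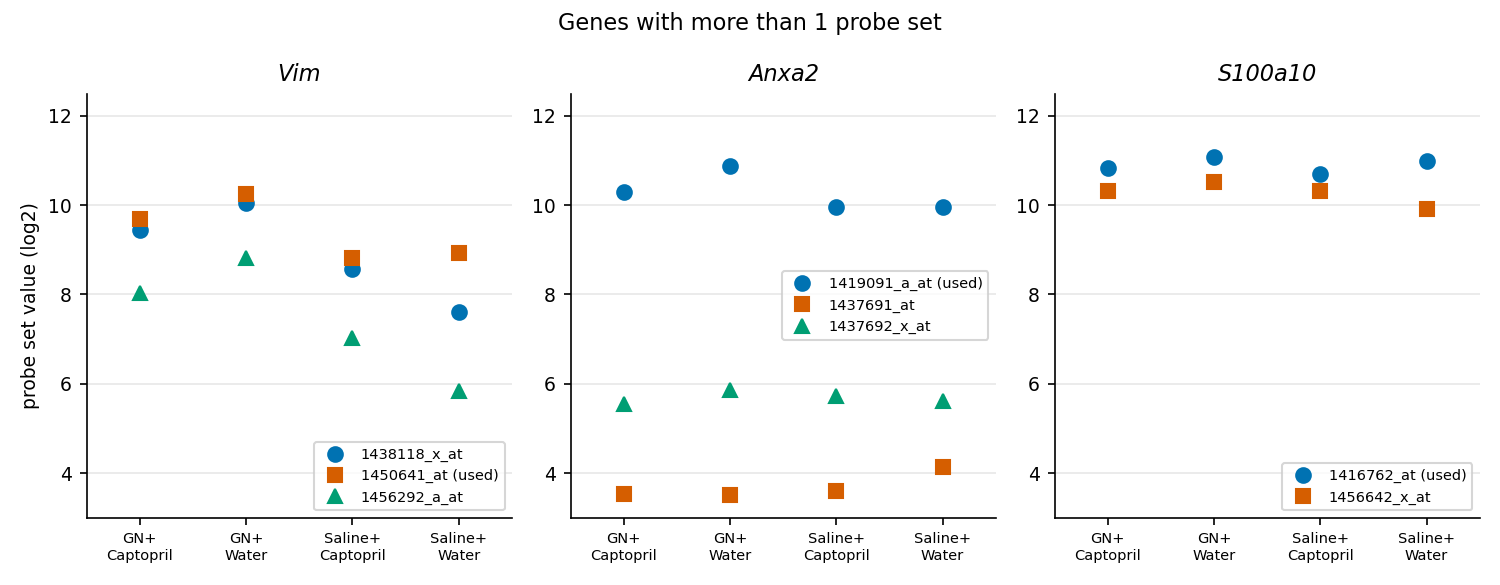
Probe set values (log2) on the 4 arrays for the 3 genes with more than 1 probe set, with a symbol for each probe set and the one used marked in the legend. The Vim probe sets spread most on Saline+Water, from 5.84 to 8.92, and 2 of the Anxa2 probe sets lie between 3.51 and 5.86 throughout.

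Lgals3 encodes galectin-3, made by macrophages, collecting duct cells and injured tubules. Its value was 10.43 on GN+Captopril, 11.05 on the array labelled GN+Water, 10.27 on Saline+Captopril and 9.38 on Saline+Water. Of the 8 genes it had the widest gap between the saline arrays, with Saline+Captopril 1.85-fold above Saline+Water. The GN difference was 1.12-fold on captopril and 3.18-fold on water, and the second was 1.72-fold with Saline+Captopril as the baseline.

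**Figure D4:**
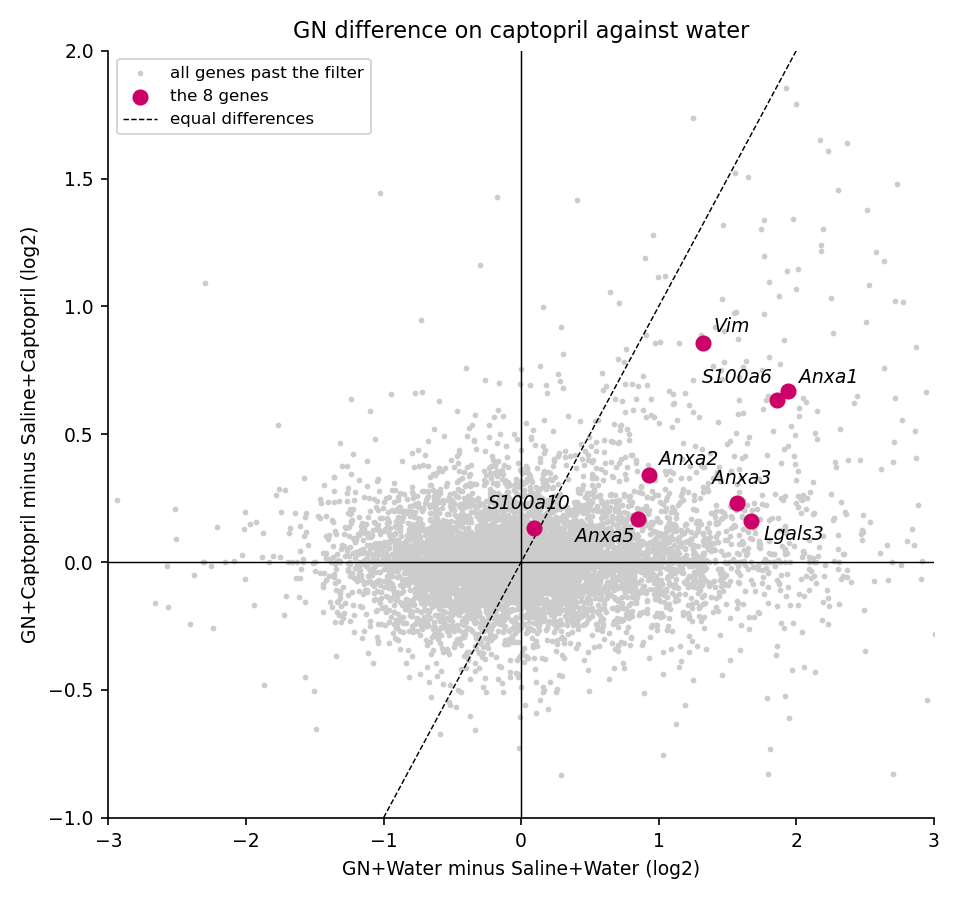
GN minus saline (log2) on captopril (vertical) against water (horizontal) for the 8207 genes past the filter in grey, with the 8 genes marked; 42 genes lie outside the window. The 8 genes lie right of and above 0, and 7 of them lie under the dashed line of equal differences, with S100a10 just above it.

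All 8 genes had lower values on GN+Captopril than on the other GN array, as had 44.8% of all genes. The median difference of GN+Captopril minus the array labelled GN+Water was -0.61, against 0.00 for all genes. Here 5 of 8 genes were at least 1.5-fold lower, where 4.52% of all genes were, and 0 were higher, where 3.70% were. These were Anxa3 (1.89-fold), S100a6 (1.78-fold), Anxa1 (1.56-fold), Lgals3 (1.54-fold) and Anxa2 (1.51-fold). Vim was at 1.48-fold lower, just outside the threshold, and Anxa2 just inside it. The other 2 probe sets of Vim, both past the filter, were 1.52-fold and 1.72-fold lower. As the mean of its probe sets, Anxa2 differed by -0.29 (log2). At 2-fold 0 of 8 passed, where 1.12% of all genes were lower. This comparison cannot be made without the array labelled GN+Water, and sex and captopril cannot be told apart in it.

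In saline-injected mice the direction differed between genes and, for 2 of them, between probe sets past the filter. The median of Saline+Captopril minus Saline+Water was 0.35, against 0.01 for all genes, and 2 of 8 genes passed 1.5-fold upward, 0 downward. Among all genes, 15.6% were higher and 10.2% lower. At 2-fold 0 of 8 were higher, where 6.43% of all genes were. Values lower on captopril in GN and higher on captopril in saline were seen for 5 of 8 genes and for 25.6% of all genes. Lgals3 was 1.85-fold and Anxa1 1.55-fold higher, while S100a10, Vim and Anxa2 differed by -0.28, -0.10 and -0.01. The second S100a10 probe set differed by 0.40 and the other 2 of Vim by 0.98 and 1.19, so the sign for these 2 genes turned with the probe set. The Anxa2 probe set 1437692_x_at, which failed the filter, differed by 0.09. As the mean of its probe sets, S100a10 differed by 0.06 and Vim by 0.69. Every one of these values rests on Saline+Water, the array with discordant spike-ins.

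The difference between the GN differences, captopril pair minus water pair, was -1.51 for Lgals3, -1.34 for Anxa3, -1.27 for Anxa1 and -1.22 for S100a6. It was smaller for Anxa5 (-0.68), Anxa2 (-0.59) and Vim (-0.47), and 0.04 for S100a10. The place of Vim and S100a10 in this order depended on the probe set. The other 2 probe sets of Vim gave -1.58 and -1.97, and the second of S100a10 gave -0.60, all past the filter. With the probe sets used, the difference was below 0, with both pairs higher in GN, for 7 of 8 genes, as for 21.4% of all genes. With 1 array in each group this difference was not tested.

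Among the 8 genes, Anxa1 and S100a6 were the most alike. The root mean square distance between their values, each centred on its own mean over the 4 arrays, was 0.11. Anxa5 and Anxa2 were 0.15 apart, and Anxa3 and Lgals3 0.20. S100a10 was the farthest from Anxa1, at 0.69, and its nearest was Anxa5 at 0.29. Around the median profile of the 8 genes, the 8 nearest other genes were Serpinb6b, Ptger4, Nrros, C1s1, Pip4k2a, Plbd1, Sla and Selenow, at distances of 0.03 to 0.07 over 4 arrays. Ptger4 encodes a prostaglandin E2 receptor and C1s1 a protease of the classical complement pathway. These 8 were chosen for their likeness, and their values describe it only.

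Other members of the annexin family were measured beside these genes. Of 8 other annexins, 7 had a probe set of their own and 4 passed the filter: 0 were at least 1.5-fold higher in either GN pair and 1, Anxa13, was lower on water by 0.67. The median was 0.05 on captopril and -0.21 on water. Anxa13, an annexin of intestinal and kidney epithelium, was at 8.86 on GN+Captopril, 7.54 on the array labelled GN+Water, 8.52 on Saline+Captopril and 8.21 on Saline+Water. It was thus lowest on the array with discordant sex markers and below its Saline+Water value only there.

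Of 13 other S100 genes, 11 had a probe set and 5 passed the filter, with 1 higher on captopril and 3 on water, and 0 lower. S100a4, a calcium-binding protein of fibroblasts and macrophages, was at 7.68 on GN+Captopril, 8.10 on the array labelled GN+Water, 6.49 on Saline+Captopril and 6.34 on Saline+Water. Both GN arrays were clear of both saline arrays, 2.29-fold apart on captopril and 3.40-fold on water. S100a16 and S100a13 differed by 0.09 and 0.00 (log2) on captopril and by 1.33 and 1.11 on water. S100a8 and S100a9, which together form the neutrophil protein calprotectin, failed the filter. They differed by 1.06 and 0.60 on captopril and by -0.70 and -1.38 on water, opposite ways, at levels between 4.66 and 7.19.

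Among 9 other galectin genes, 7 passed the filter. Lgals9, which encodes a lectin with 2 sugar-binding domains that acts on leukocytes, was the only one at least 1.5-fold higher in each GN pair, by 0.59 on captopril and 0.76 on water (log2), and 0 were lower. The list's median was 0.03 on captopril and -0.23 on water. Lgals1 was within 0.31 in both pairs. Of 17 other intermediate filament genes, 7 passed the filter and had a median of 0.05 on captopril and -0.19 on water. In this list 0 passed 1.5-fold on captopril, while on water Krt18, a simple epithelial keratin, was higher by 0.59 and Lmna, the nuclear lamin A/C gene, lower by 0.78. Desmin, the muscle relative of vimentin encoded by Des, differed by -0.11 on captopril and -0.06 on water.

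Of 18 binding partners and receptors, 16 had a probe set and 10 passed the filter, with 1 higher on captopril, 4 higher on water and 0 lower. Tmsb10, a thymosin that binds actin monomers, was 1.72-fold higher on captopril and 2.78-fold on water. On water, Pla2g4a, the cytosolic phospholipase A2 that annexin A1 inhibits, was 2.74-fold higher. Ahnak, a giant scaffold bound by the annexin A2 complex, was 2.51-fold higher on water, and Tmsb4x 2.08-fold. On captopril these 3 genes were 1.15-fold, 1.05-fold and 1.33-fold higher. Fpr2, a formyl peptide receptor for annexin A1, failed the filter on its mean. It was at 7.27 on GN+Captopril and 7.77 on the array labelled GN+Water, against 4.57 on Saline+Captopril and 4.88 on Saline+Water, both just above the background limits of 4.51 and 4.81. Its GN differences of 2.70 and 2.89 are given as measured. Further genes of these lists below the filter that were at least 1.5-fold apart on water were Anxa8, S100a3, S100a14, Lgals7, Prph, Lmnb2, Plau, Plg and Trpv6, all lower, by 0.63 to 1.51. Their differences on captopril were between -0.13 and 0.14. Each of these genes had its highest value on Saline+Water, the array with discordant spike-ins.

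Several of the 8 genes are also made by macrophages, mesenchymal cells or injured tubules, and markers of these cells were set beside them. Of 10 macrophage markers, 9 passed the filter, with 8 at least 1.5-fold higher in GN on captopril and 9 on water, and medians of 1.12 and 1.76. The summed linear level of all 10 was 7897 on GN+Captopril, 13024 on the array labelled GN+Water, 2688 on Saline+Captopril and 2884 on Saline+Water. The largest part of this sum on the GN arrays was Lyz2, the macrophage lysozyme gene. Lyz2 was at 12.01 on GN+Captopril, 12.72 on the array labelled GN+Water, 8.81 on Saline+Captopril and 8.86 on Saline+Water (log2). That is 9.17-fold higher in GN on captopril and 14.5-fold on water. Of 9 fibroblast and pericyte markers, 8 passed the filter, with 1 higher on captopril and 6 on water, and medians of 0.35 and 1.63. The summed level of all 9 was 4350, 7101, 3435 and 2810 in the same order of arrays. Of 8 injured tubule markers, 4 passed the filter, with 1 higher on captopril and 3 on water, and medians of 0.28 and 1.31. The summed level of all 7 measured markers was 3735, 6343, 4034 and 4649, so on captopril the sum was lower in GN while the median was higher. Most of the sum was Clu, encoding clusterin, at 11.59 on GN+Captopril, 12.30 on the array labelled GN+Water, 11.82 on Saline+Captopril and 12.05 on Saline+Water (log2). No marker of these 3 lists was near background on all 4 arrays. The part of these cells in the differences of the 8 genes was not tested.

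**Figure D5:**
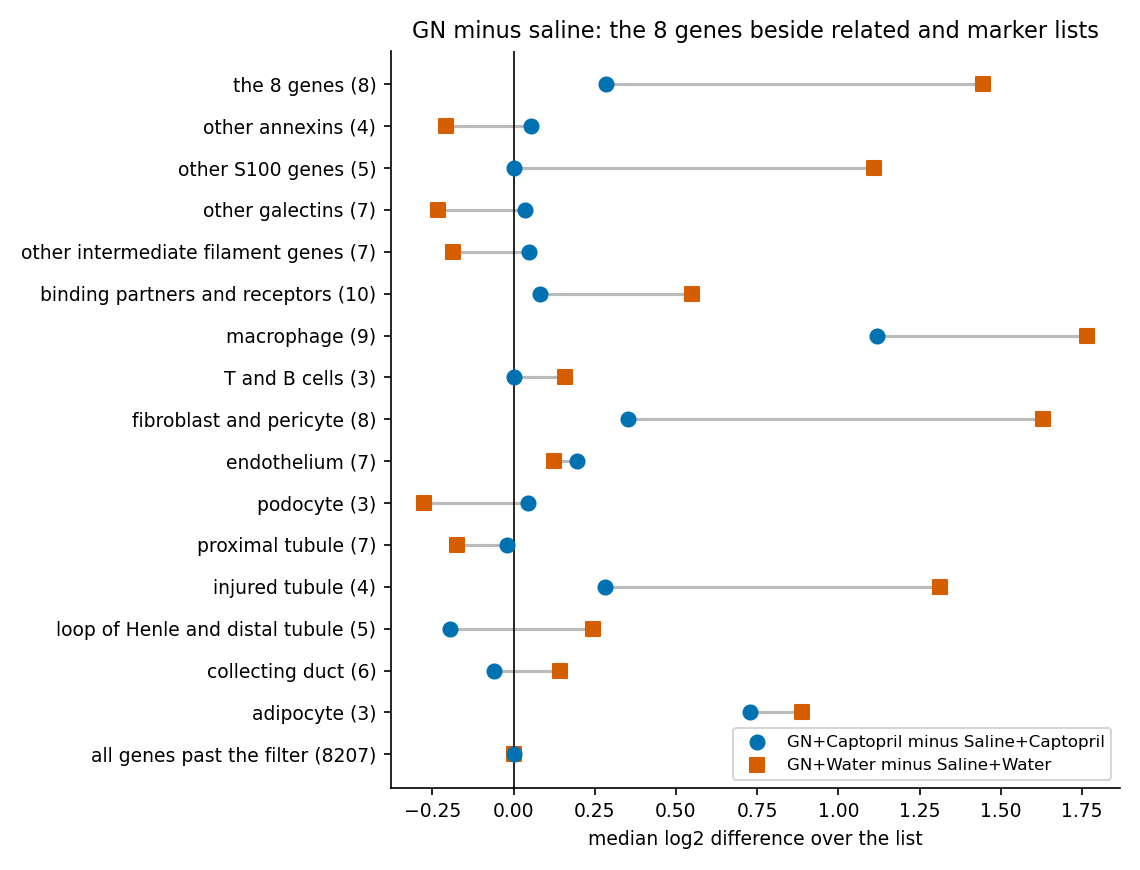
Median log2 difference of GN minus saline over the 8 genes, the related lists, the marker lists with at least 3 genes past the filter, and all genes, with the number of genes past the filter in brackets; circles are captopril arrays and squares water arrays. The 8 genes lie at 0.29 and 1.44. The fibroblast and pericyte list lies at 0.35 and 1.63, and the injured tubule list of 4 genes at 0.28 and 1.31. Macrophage markers lie at 1.12 and 1.76, and adipocyte genes at 0.73 and 0.89. Which cells the differences came from was not tested.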

How the data were processed

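Total RNA (6 µg) of whole kidney was labelled as biotinylated cRNA for Affymetrix arrays, per the labels' protocols. Judged from their range, the values the authors deposited are on a log2 scale, for 22690 probe sets on each of 4 arrays. The submitters' processing notes name GCOS and RMA. Which of them made the values, with which settings, and the build are not stated in the sources used. Identical values on a pair of arrays were most common for GN+Captopril and Saline+Captopril, at 9.19% of genes. They ranged from 0.88% to 4.52% for the other pairs compared. Values were used as deposited.

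Of the probe sets, 20393 had 1 gene symbol, 691 several and 1606 none. Symbols were updated through the Entrez ID (20364 probe sets) with a RefSeq table of GRCm38.p6. A gene was its probe set with the highest mean, and passed the filter at a mean of 6.27 or more, the 40th percentile over probe sets. Per array, the 90th percentile among 27 negative controls was the background limit. With 1 array per group there are 0 residual degrees of freedom, so there is no test, error or p-value, and precision is limited by the number of arrays. Members, gene lists and thresholds were chosen with earlier results of these data known, and fixed lists covered relatives, partners and kidney cell types. All listed genes were reported. Relatives were named when 1.5-fold apart in either GN pair, and Lgals1 and Des were named without being so. Other genes were named by the distance given. Counting was tested on simulated data. Alternatives were 3 other normalizations, other probe set rules, filters and thresholds, and exchanged arrays. Python 3.11.15, pandas 2.3.3, R 4.3.3 and limma 3.58.1 were used.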

Additional observations from a re-analysis of the deposited data

Results flagged for a closer look

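For 5 of the 8 genes the captopril difference pointed opposite ways in GN and in saline kidneys: lower on captopril in GN and higher on captopril in saline. It was -0.64 in GN and 0.63 in saline for Anxa1, a difference of -1.27 between them. For Anxa3 it was -0.91 and 0.42, a difference of -1.34, and for Anxa5 -0.38 and 0.30, a difference of -0.68. For S100a6 it was -0.83 and 0.39, a difference of -1.22, and for Lgals3 -0.62 and 0.89, a difference of -1.51. For each gene, the difference between the 2 values is the same quantity as the difference between the GN differences given earlier. It is therefore no separate result. These 5 genes are also the ones with their lowest value on Saline+Water. Of all genes past the filter, 25.6% had this pair of signs. The count rests on the probe set used for each gene. The other 2 probe sets of Vim and the second of S100a10, all past the filter, also had this pair of signs. The differences were not tested, since each rests on 1 array per group. The GN values use the array labelled GN+Water and the saline values use Saline+Water.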

How the results depend on the processing

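No paired analysis was possible because each group has 1 array. Of 98 alternative values for the members' medians and counts, 90 stayed within 1.5-fold of the value reported. So did 218 of the values for single genes, while 10 moved further and 0 differences past 1.5-fold changed sign. Many of these values could not move. The other filters kept all 8 genes with their values unchanged, and genes with 1 probe set kept theirs under the mean of probe sets. At 2-fold, 0 of the 8 genes were higher in GN on captopril, 0 lower with captopril among GN arrays, and 0 higher with captopril among saline arrays. At 1.5-fold, the count higher with captopril among saline arrays was 1 with quantile normalization and 1 with cyclic loess, in place of 2. The count lower with captopril among GN arrays was 6 with either of them, in place of 5. Without probe sets of shared or alternative type, which leaves out Anxa2, Anxa5 and S100a6, 4 of 5 genes were higher in GN on water and 3 of 5 lower with captopril among GN arrays. When GN+Captopril served as the GN array against Saline+Water, the median was 0.71. Why the arrays and the normalizations differed was not tested. The mean over all probe sets gave 0.18 for Anxa2 and 2.25 for Vim on water, and for captopril in saline 0.69 for Vim, in place of -0.10, and 0.06 for S100a10, in place of -0.28. Over all genes, the water pair had 1606 higher and 1255 lower, and Saline+Captopril as its baseline gave 518 and 249. GN+Captopril as its GN array gave 839 lower. At 2-fold, 849 were higher and 363 lower on water, and 59 and 2 on captopril, against 152 and 17 at 1.5-fold. With captopril, 114 were higher and 92 lower at 2-fold among GN arrays, against 304 and 371, and 528 and 171 among saline arrays, against 1278 and 835. Without a filter, 2234 were lower on water, 34 on captopril and 1655 with captopril in saline. With a filter at the 60th percentile, 806 were lower on water, 89 higher and 11 lower on captopril, 229 lower with captopril in GN and 470 in saline. Normalization details and detection calls were not used here, so precision near background is unknown.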

Other observations

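Matched 1 gene at a time over the 4 arrays, the nearest profile among the 8207 genes was as follows. The nearest to Anxa3 was Pla2g4a at a distance of 0.04, the nearest to Vim was Tmsb10 at 0.06, and the nearest to S100a6 was Cd14, a macrophage receptor for lipopolysaccharide, at 0.06. For Lgals3 it was Plaat3 at 0.02, for Anxa1 Stk17b at 0.06, for Anxa2 Mpv17l at 0.03, for Anxa5 Jpt1 at 0.004 and for S100a10 Enc1 at 0.02. These neighbours were picked from all genes for their closeness over 4 points, so they are descriptions only.

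The remaining marker lists are given by their medians. Medians on captopril and on water were 0.20 and 0.12 for 7 endothelial genes, 0.04 and -0.28 for 3 podocyte genes, and -0.02 and -0.18 for 7 proximal tubule genes. They were -0.19 and 0.24 for 5 loop of Henle and distal tubule genes, -0.06 and 0.14 for 6 collecting duct genes, and 0.00 and 0.16 for 3 T and B cell genes. The 3 adipocyte genes had medians of 0.73 and 0.89, and Adipoq was at 8.92 on GN+Captopril, 8.25 on the array labelled GN+Water, 7.77 on Saline+Captopril and 6.24 on Saline+Water. None of 6 measured neutrophil markers passed the filter, and 1 of 4 measured adrenal markers did, Dbh, at -0.32 and -0.48. Cd44, a hyaluronan receptor of injured tubules and leukocytes, failed the filter with 7.09 on GN+Captopril and 7.88 on the array labelled GN+Water, against 5.48 on Saline+Captopril and 4.38 on Saline+Water, where it was near background.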
